A study of Mus musculus with 4 samples.

Results

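The 32 genes described here encode enzymes and regulators of cholesterol and fatty acid synthesis, and were chosen by name from the 31053 genes of the count tables. They comprise 17 enzymes on the way from acetyl-CoA to cholesterol, 5 regulators of that pathway and 10 genes of fatty acid synthesis, elongation and desaturation. All 32 were found by symbol and Ensembl identifier. They were measured in stem cells sorted from the bone marrow of 2 male mice aged 14 weeks, strain Tie2-bG-Micm x RosaYFP, with no treatment named. Each mouse gave 1 library of long-term haematopoietic stem cells (LT-HSC, CD150 positive and CD48 negative) and 1 of short-term haematopoietic stem cells (ST-HSC, negative for both), both within the lineage-negative, Kit and Sca1 positive fraction. The 4 libraries, made with the droplet-based 10x Chromium 3' kit, are called LT1 and ST1 for mouse 1 and LT2 and ST2 for mouse 2. All groups share the strain, and the labels do not say which of its alleles were active in the sorted cells.

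Cells make cholesterol from acetyl-CoA through mevalonate, farnesyl diphosphate, squalene and lanosterol. Transcription of the enzymes is driven by the sterol regulatory element-binding proteins (SREBPs), encoded by Srebf1 and Srebf2. When membrane sterol is plentiful, Insig proteins hold the SREBPs and their escort Scap in the endoplasmic reticulum; when it falls, the SREBPs travel to the Golgi, are cleaved and enter the nucleus. Srebf2 is known mainly for the cholesterol genes and Srebf1 for the fatty acid genes. Dividing cells need sterols and fatty acids for new membrane.

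Cells were kept with at least 1000 genes, at least 2000 unique molecular identifiers (UMIs, each standing for 1 captured transcript) and at most 10% mitochondrial UMIs. LT1 stood apart: of its 39553 barcodes, with a median of 285 UMIs, 22 were kept, and these summed to 115305 UMIs. LT2, ST1 and ST2 gave 1217, 2633 and 1707 cells, with medians from 7504 to 10367 UMIs and totals from 13249904 to 27870823. Kept cells of ST2 shared 1 barcode with LT2 and 1 with ST1. Slamf1, which encodes CD150, stood at 34.7 and 21.9 UMIs per 1000000 (CPM) in LT1 and LT2 and at 0.825 and 1.401 CPM in ST1 and ST2. Cd48 stood at 0 and 2.19 CPM in LT-HSC and at 12.95 and 17.99 CPM in ST-HSC. The 10 neutrophil markers summed to 26.02, 165, 574 and 1942 CPM in LT1, LT2, ST1 and ST2, with 7, 1, 0 and 0 of them at 0. They were higher in ST-HSC than in LT-HSC, and their part in the gate comparison was tested only by leaving out cells rich in them, which kept 3 members called.

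The sterol enzymes were expressed at low to moderate levels in every library. Summed over the 17 enzymes, kept cells of LT2, ST1 and ST2 held 446, 357 and 380.0 CPM. LT1 held 312 CPM in its 22 cells, from 36 UMIs, and 361 CPM over all its barcodes. The highest sum was that of 1 LT-HSC library, and the other lay near ST1. The 3' kit counts 1 tag per transcript, so levels of different genes are given in CPM without scaling for length. Msmo1, a methylsterol oxidase that acts after lanosterol, stood at 52.8, 41.5 and 42.6 CPM in LT2, ST1 and ST2. Ebp, a sterol isomerase, stood at 42.4, 44.2 and 50.4 CPM in the same order. Idi1, the isomerase of isopentenyl diphosphate, stood at 54.8, 36.5 and 34.3 CPM, and Fdps, which makes farnesyl diphosphate, at 47.8, 34.4 and 43.8 CPM. These 4 were the most abundant enzymes, and their order differed between libraries. Mvd, Lss and Hsd17b7 (mevalonate diphosphate decarboxylase, lanosterol synthase and a sterol ketoreductase) were the least abundant, between 3.54 and 6.35 CPM.

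The 5 regulators summed to 219, 204 and 232 CPM in LT2, ST1 and ST2. Srebf2 was the highest of them, at 84.6, 89.9 and 112 CPM, followed by Insig1 at 69.7, 42.7 and 57.6 CPM, and Scap was the lowest, at 15.5, 19.2 and 16.3 CPM. The 10 fatty acid genes summed to 234, 294 and 245 CPM. Scd2, a stearoyl-CoA desaturase, which introduces the double bond of oleate, was the most abundant of them, at 70.9, 115 and 90.001 CPM. Its paralog Scd1 stood at 3.02, 0.753 and 0.295 CPM, from 40, 21 and 4 UMIs, so the counted transcripts of this pair were mostly those of Scd2. Scd1 (chromosome 19, 44394455 to 44407879) and Scd2 (44293674 to 44306864, mm10) are neighbours, and the treatment of reads that match both is not stated.

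**Figure D1:**
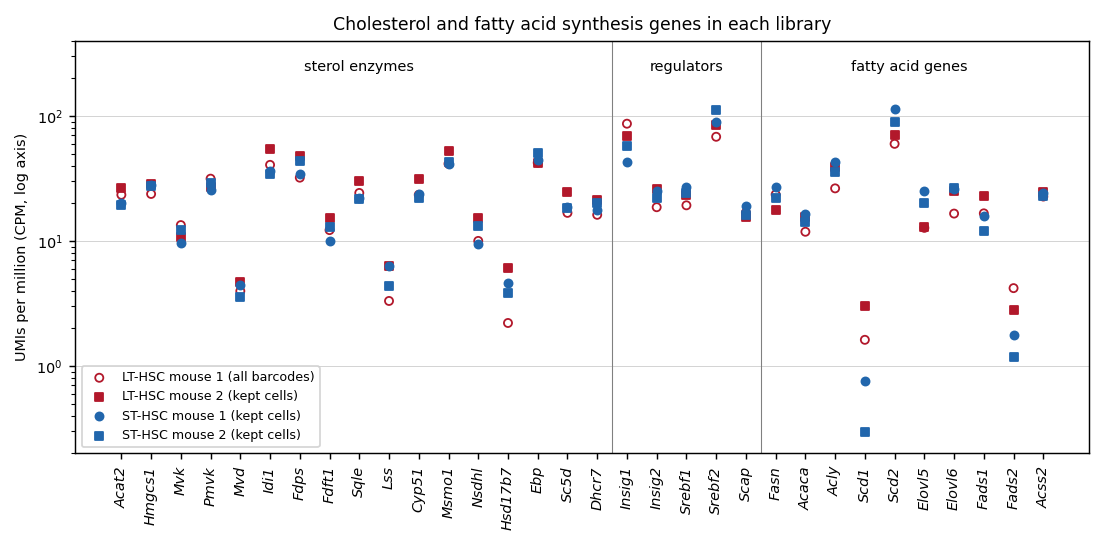
Level of each of the 32 genes in each library, in CPM on a log axis, grouped by role. Filled symbols are kept cells of LT2, ST1 and ST2 and open circles all barcodes of LT1; the lowest point is Scd1 in ST2 at 0.295 CPM.

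Between LT-HSC and ST-HSC, 2 of the 32 genes were higher and 1 lower in LT-HSC at an adjusted p under 0.05 (edgeR's quasi-likelihood test on counts summed per library, Benjamini-Hochberg adjustment over 12656 genes). All 3 belong to the fatty acid group. Of all genes 6.72% passed, 3.6% higher and 3.13% lower, and the members' share was near that. In sums over cells, more cells with a transcript and more transcript per cell cannot be told apart.

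Scd1 stood at 8.19 and 3.08 normalised CPM in LT1 and LT2 and at 0.758 and 0.304 in ST1 and ST2. Both LT-HSC libraries lay above both ST-HSC libraries, although the LT1 value rests on 1 UMI. The log2 difference was 2.43 (SE 0.51, edgeR adjusted p = 7.98e-05). Over all barcodes of LT1, with 22 Scd1 UMIs, it was 2.09 (adjusted p = 0.0125), and without LT1 it was 2.38 (adjusted p = 0.0299). Without LT2 it was 3.79 and did not pass (adjusted p = 0.749).

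Elovl5, an elongase of polyunsaturated fatty acids, was the member lower in LT-HSC. It stood at 8.19 and 13.3 normalised CPM in LT1 and LT2 and at 25.1 and 20.8 in ST1 and ST2, with no overlap between the gates. The log2 difference was -0.82 (SE 0.24, adjusted p = 0.0119), and -0.70 over all barcodes of LT1 (adjusted p = 0.0213). With the mouse as a block it was -0.69 and did not pass (adjusted p = 0.156). It also missed the threshold without LT2 (-1.50, adjusted p = 0.768) and without ST1 (-0.67, adjusted p = 0.289).

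Fads1, a desaturase of polyunsaturated fatty acids, was higher in LT-HSC, at 32.7 and 23.5 against 15.8 and 12.4 normalised CPM, again without overlap. The log2 difference was 0.75 (SE 0.23, adjusted p = 0.0185). It was lost when any library was left out, with an adjusted p of 0.0646 without LT1, 0.752 without LT2, 0.109 without ST1 and 0.432 without ST2. Over all barcodes of LT1 it was 0.61 (adjusted p = 0.0583). Fads2, a desaturase of the same pathway, had a log2 difference of 0.94 in kept cells (adjusted p = 0.325). Scd2 stood at 65.5 and 72.4 normalised CPM in LT-HSC and at 116 and 92.8 in ST-HSC. Its gates did not overlap either, but the log2 difference of -0.54 missed the threshold (adjusted p = 0.0703). Acss2, with a log2 difference of 0.06 (adjusted p = 0.996), did not overlap either. With 2 libraries per gate, a lack of overlap thus sets no gene apart, and its share over all genes was not counted. Fasn, the fatty acid synthase, had a difference of -0.49 (adjusted p = 0.259).

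None of the 17 sterol enzymes passed between the gates by edgeR in kept cells; 2 had an unadjusted p under 0.05, and DESeq2 called 0 of the 32 members. The estimate was above 0 for 15 of the 17, with a median log2 difference of 0.34 against -0.02 over all genes. That median was -0.80 without LT2, which leaves the 22 cells of LT1 as the LT-HSC sample. The highest estimate was that of Idi1, at 16.4 and 55.9 normalised CPM in LT1 and LT2 and 36.8 and 35.3 in ST1 and ST2 (log2 0.54, adjusted p = 0.105). The 2 LT-HSC libraries thus lay on either side of ST-HSC. Hmgcs1, which makes the precursor of mevalonate, had a log2 difference of 0.00 with a 95% interval from -0.42 to 0.42. None of the 5 regulators passed by edgeR, and 1, Insig1, had an unadjusted p under 0.05 (log2 0.39, adjusted p = 0.343).

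When all barcodes of LT1 entered the sums, 5 of the 32 passed, against 8.87% of all genes (5.04% higher and 3.82% lower). Scd1, Fads2, Idi1 and Insig1 were then higher in LT-HSC and Elovl5 lower. Idi1 stood at 45.5 and 52.9 normalised CPM in LT1 and LT2 and at 34.7 and 33.4 in ST1 and ST2 (log2 0.53, adjusted p = 0.0398). Insig1, itself a target of the SREBPs, stood at 97.02 and 67.3 against 40.5 and 56.2 (log2 0.77, adjusted p = 0.0354). Fads2 stood at 4.69 and 2.698 against 1.67 and 1.15 (log2 1.33, adjusted p = 0.0382). For each of these 3 genes both LT-HSC values lay above both ST-HSC values. The same held for Acat2, Sqle and Msmo1, which did not pass, and the share over all genes was not counted. How many of the added barcodes hold a cell was not tested. The Insig1 call was lost without LT1 (0.48, adjusted p = 0.276) and without ST1 (0.54, adjusted p = 0.215). That of Fads2 was lost without LT1 (0.88, adjusted p = 0.399) and without ST2 (1.13, adjusted p = 0.0896). That of Idi1 was lost without LT1, LT2, ST1 or ST2, with adjusted p of 0.0546, 0.142, 0.137 and 0.170. Scd1 was lost without LT2 (adjusted p = 0.141), and Elovl5 without LT2 or ST1 (adjusted p = 0.0975 and 0.149). Of the further genes of these pathways, 0 of 10 sterol genes, 0 of 16 fatty acid genes and 0 of 5 genes of sterol sensing and efflux passed by edgeR in kept cells, and each list held 1 gene with an unadjusted p under 0.05. Over all barcodes Mylip, a ubiquitin ligase, was lower in LT-HSC.

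**Figure D2:**
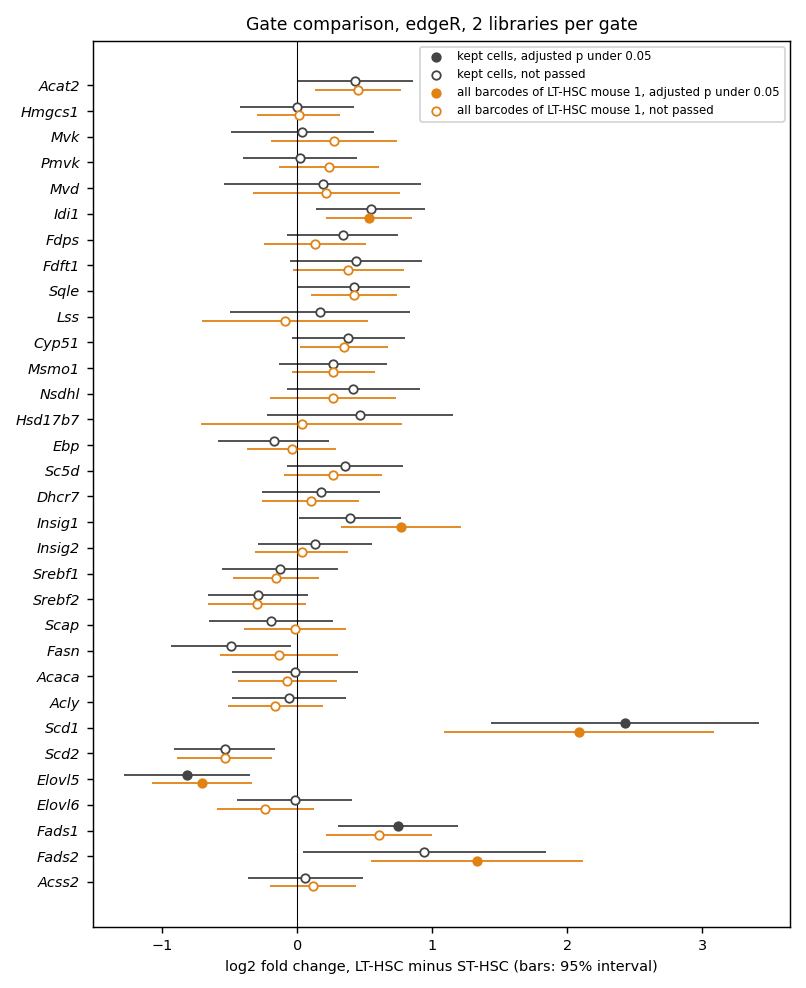
Log2 difference between LT-HSC and ST-HSC for each of the 32 genes, with 95% intervals, in kept cells (grey) and with all barcodes of LT1 (orange). Filled points passed at an adjusted p under 0.05: Scd1, Fads1 and Elovl5 in kept cells, and Scd1, Fads2, Idi1, Insig1 and Elovl5 with all barcodes.

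Joint variation of the pathway from cell to cell was examined in LT2, ST1 and ST2, after each cell was thinned to 5000 UMIs. This left 1146, 2564 and 1590 cells, and the 9 cells of LT1 with that depth were left out. A thinned cell held on average 2.18, 1.77 and 1.86 UMIs of the 17 enzymes together in LT2, ST1 and ST2. In 17.2, 21.8 and 21.1% of cells no such UMI was seen, which does not show that they lack the enzymes, and in 2.27, 1.13 and 1.19% there were 8 or more.

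The variance of the summed sterol enzyme UMIs was 1.57, 1.48 and 1.46 times the sum of the single genes' variances in LT2, ST1 and ST2. Genes that vary independently give a ratio of 1. The ratio was 1.03 to 1.04 for the regulators and 1.02 to 1.03 for the fatty acid genes. Within cells low in cell cycle transcripts, a range defined below, it was 1.598, 1.54 and 1.45 for the sterol enzymes, 0.942 to 1.07 for the regulators and 0.955 to 1.07 for the fatty acid genes. For comparison, the ratio over all thinned cells was 8.12, 7.13 and 6.204 for the S phase list and 11.8, 11.5 and 8.72 for the G2/M list. At the same positive correlation between pairs, the ratio rises with the number of genes. The sterol enzymes, regulators and fatty acid genes number 17, 5 and 10 and each cycle list 40, so the size of the ratio is not comparable between lists. Correlations of single pairs were weak in counts this sparse and are given as description, over cells that share a library. Their median over the 136 pairs of enzymes was 0.0235, 0.0186 and 0.0206, and 72.1, 69.9 and 70.6% of pairs lay above 0. Over all pairs of detected genes the share above 0 was 48.9, 49.2 and 49.2% in LT2, ST1 and ST2. For the 10 pairs of regulators it was 70, 50 and 60%, and for the fatty acid genes 55.6, 52.8 and 46.4%. Among enzymes and regulators the pair with the highest mean was Msmo1 with Insig1, at 0.184, 0.122 and 0.159, followed by Fdps with Msmo1, at 0.150, 0.157 and 0.136.

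**Figure D3:**
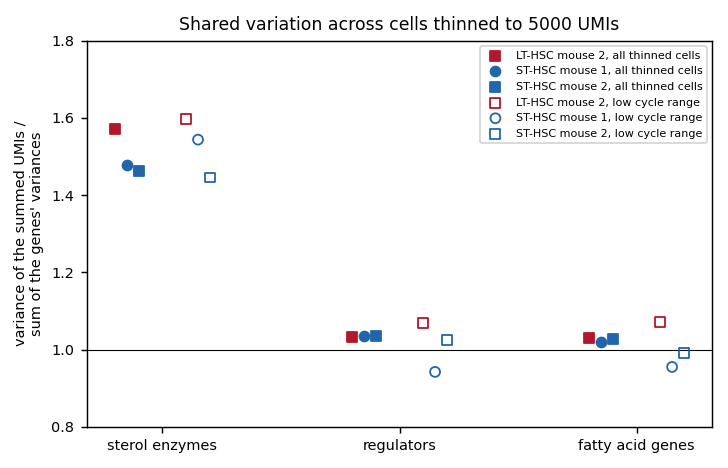
Variance of the summed UMIs of each group over the sum of its genes' variances, per library, in all thinned cells (filled) and in the low cycle range (open), with a line at 1 for independent genes. Sterol enzymes lie between 1.45 and 1.598, and the filled points of the other 2 groups between 1.02 and 1.04.

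For a test across libraries the enzymes were split by alternate place in the pathway into set A (Acat2, Mvk, Mvd, Fdps, Sqle, Cyp51, Nsdhl, Ebp and Dhcr7) and set B (Hmgcs1, Pmvk, Idi1, Fdft1, Lss, Msmo1, Hsd17b7 and Sc5d). Cells with at least 1 thinned UMI of a set were compared with cells at 0, within each of LT2, ST1 and ST2, and the genes outside the set were read out. The genes of the set differ by construction and are no result. High-score and low-score cells are ranges split between 0 and 1 UMI, not cell types. The share of all genes whose high and low values do not overlap was not counted. A set A score gave 727, 1478 and 931 high-score and 419, 1086 and 659 low-score cells, and a set B score 662, 1364 and 851 and 484, 1200 and 739.

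With the set A score, 4 of the 8 set B enzymes were higher in high-score cells and 0 lower. Of all genes outside the score 2.01% passed, 1.53% higher and 0.483% lower. Msmo1 stood at 62.7, 47.9 and 50.1 normalised CPM in high-score cells of LT2, ST1 and ST2 and at 35.04, 30.1 and 31.1 in low-score cells. All high values lay above all low values (log2 0.73, SE 0.07, edgeR adjusted p = 3.38e-06). Idi1 stood at 63.7, 41.9 and 38.5 against 40.1, 27.9 and 29.8, higher within each library although the ranges of values overlap (log2 0.55, SE 0.07, adjusted p = 0.000197). Pmvk, a kinase of the mevalonate pathway, stood at 29.1, 27.4 and 32.7 against 24.2, 22.3 and 23.6 (log2 0.34, adjusted p = 0.0247). Hmgcs1 stood at 30.4, 30.6 and 30.3 against 25.5, 23.6 and 24.98 (log2 0.32, adjusted p = 0.0317). Both were higher within each library. The Pmvk call was lost without LT2, ST1 or ST2 (adjusted p = 0.0625, 0.0657 and 0.117), and that of Hmgcs1 without LT2 (0.0832) or ST1 (0.338). Fdft1, squalene synthase, and Hsd17b7, Lss and Sc5d, a sterol desaturase, had log2 differences of 0.26, 0.28, 0.20 and 0.10 and did not pass.

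With the set B score, 3 of the 9 set A enzymes were higher and 0 lower, where 0.168% of all genes passed, 0.0758% higher and 0.0927% lower. Cyp51, the lanosterol demethylase, stood at 36.4, 29.9 and 28.1 normalised CPM in high-score and at 25.1, 15.4 and 16.3 in low-score cells of LT2, ST1 and ST2 (log2 0.79, SE 0.09, adjusted p = 0.000240). Sqle, squalene epoxidase, stood at 37.3, 25.6 and 26.4 against 21.55, 16.6 and 17.6 (log2 0.66, SE 0.08, adjusted p = 0.000472). Fdps stood at 57.9, 38.4 and 52.2 against 36.04, 28.6 and 35.2 (log2 0.54, SE 0.07, adjusted p = 0.000714). For each of these 3 enzymes every high value lay above every low value, which is given as description only. By DESeq2 Sqle did not pass (0.66, adjusted p = 0.0820). Ebp stood at 43.4, 43.5 and 50.9 against 43.1, 43.8 and 51.5, with a log2 difference of -0.01 and a 95% interval from -0.13 to 0.12. Acat2, which makes acetoacetyl-CoA, and Mvd had differences of 0.33 (adjusted p = 0.251) and 0.67 (adjusted p = 0.537). Mvk, mevalonate kinase, Nsdhl, a sterol dehydrogenase, and Dhcr7, a sterol reductase, had differences of 0.11, 0.24 and 0.14 and did not pass.

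Among the regulators Insig1 was higher with both scores. With set A it stood at 71.8, 46.6 and 64.4 against 62.99, 35.6 and 47.9 normalised CPM (log2 0.34, SE 0.06, adjusted p = 0.00334). With set B it stood at 80.8, 50.4 and 66.8 against 52.4, 31.9 and 47.5 (log2 0.60, SE 0.06, adjusted p = 2.65e-05). It was higher within each library in both. Srebf2 had differences of 0.00 (interval from -0.08 to 0.08) and 0.06 (interval from -0.02 to 0.14), and Srebf1, Scap and Insig2 did not pass with either score. None of the 9 fatty acid genes tested passed by edgeR with either score, 3 had an unadjusted p under 0.05 with each, and Scd1 was too low to be tested. Scd2 had differences of 0.00 (interval from -0.08 to 0.09) and 0.11 (interval from 0.02 to 0.19). The fatty acid gene with the estimate furthest from 0 was Fads2 with set B, at 3.85, 2.298 and 2.02 against 1.49, 1.01 and 0.332 normalised CPM (log2 1.44, adjusted p = 0.154).

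**Figure D4:**
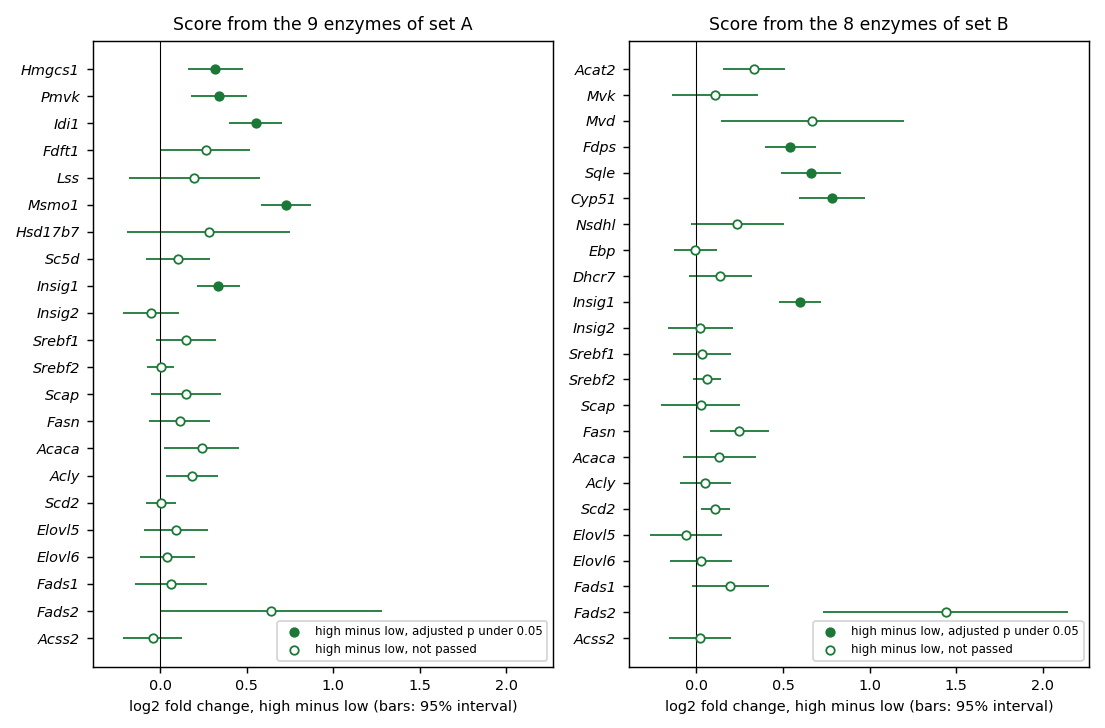
Log2 difference between high-score and low-score cells with 95% intervals, for genes outside the score, from set A (left) and set B (right), over LT2, ST1 and ST2. Filled points passed at an adjusted p under 0.05: Hmgcs1, Pmvk, Idi1, Msmo1 and Insig1 on the left, and Fdps, Sqle, Cyp51 and Insig1 on the right.

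Other genes of these pathways were read out in the same fits. Lbr, which has a sterol reductase domain, was higher with set A by 0.17 on the log2 scale. Abcg1, a cholesterol exporter, was lower with set A, at 55.9, 60.1 and 61.04 against 66.1, 71.2 and 78.2 normalised CPM, with no overlap (log2 -0.28, adjusted p = 0.00145). Its call was lost in the low cycle range (-0.37, adjusted p = 0.119), with cells thinned to 3000 UMIs (-0.13, adjusted p = 0.181) and with thinned counts summed (-0.23, adjusted p = 0.0853). Abcg1 was 1 of 4 genes of sterol sensing and efflux tested, and with set B 0 of 5 passed by edgeR, with 3 at an unadjusted p under 0.05. The call of Lbr was lost without LT2, ST1 or ST2 (0.103, 0.242 and 0.198). None of the 14 further fatty acid genes tested passed by edgeR with either score, and 2 had an unadjusted p under 0.05 with each.

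Outside the members and these lists, Mki67, Tubb5 and Hbb-bs passed with both scores. Mki67, a marker of dividing cells, was higher by 0.79 with set A and 0.54 with set B, and Tubb5, a tubulin, by 0.20 and 0.13. Hbb-bs, a haemoglobin chain, had differences of -2.18 and -2.76, not in the same direction in every library. The S phase list summed to 1984, 1878 and 1616 CPM in high-score cells of set A in LT2, ST1 and ST2 and to 1466, 1573 and 1376 CPM in low-score cells, and with set B to 1831, 1868 and 1513 and 1763, 1618 and 1527 CPM. The G2/M list summed to 769, 747 and 525 CPM in high-score cells of set A in LT2, ST1 and ST2 and to 477, 527 and 334 CPM in low-score cells. With set B it summed to 721, 745 and 433 and 592, 553 and 466 CPM, so with set B ST2 had the opposite order for both lists. Median UMIs per cell were 10686, 10090 and 7754 in high-score and 10346, 9793 and 7495 in low-score cells of set A. The neutrophil markers had no fixed direction, with 9.35, 46.5 and 2443 CPM in high-score and 8.12, 1225 and 28.2 CPM in low-score cells of set A, and their part in the result was tested only by leaving out cells rich in them. That setting also thinned the remaining cells anew.

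Within cells of the low cycle range alone, Msmo1 and Idi1 with set A were higher by 0.83 (adjusted p = 3.34e-07) and 0.86 (adjusted p = 1.78e-05). With set B, Sqle, Cyp51 and Insig1 were higher by 0.79, 0.78 and 0.51 (adjusted p = 0.0402, 0.0447 and 0.0402). The other member calls of the main fits did not pass there. Fdps with set B was at 0.58 (adjusted p = 0.147). Hmgcs1, Pmvk and Insig1 with set A were at 0.14, 0.29 and 0.26 (adjusted p = 0.997, 0.924 and 0.839). The share of all genes that passed in this range is not given here, so the number of members is not read as a result.

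The promoters were searched for the CCAAT box, which binds the SREBP partner NF-Y, for a core of the sterol regulatory element and for the E-box, since several of these genes varied together. RefSeq windows on GRCm38.p6 were found for 26 of the 32 genes (not for Fdps, Scd1, Fdft1, Scd2, Fads1 and Sqle). The 250 bases before the start were searched on both strands, and a gene was counted if any listed window held the motif. CCAAT or ATTGG was present in 13 of 14 sterol enzymes, 4 of 5 regulators and 3 of 7 fatty acid genes, and in 37.5% of the 27025 genes in the table. Acat2 was the enzyme without it. TCACNCCAC, on either strand, was present in Hmgcs1 alone among the members (3.85%) and in 1.22% of all genes. CACGTG was present in 6 of the 26 members (23.1%) and in 6.86% of all genes. A match describes the letters in the window only.

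Windows of 4 enzymes are shown because they hold the CCAAT box on both sides of the result: Hmgcs1 and Pmvk, which were higher with the set A score, and Sc5d and Ebp, which did not pass as read-outs. They lie at chr13:119690101-119690350 (plus strand), chr3:89454291-89454540 (plus), chr9:42264301-42264550 (minus) and chrX:8193513-8193762 (minus), and overlap no annotated exon. Sequences run 5′ to 3′ and end at the base before the RefSeq start of transcription. The bases after the window matched a GENCODE transcript of the gene for Pmvk and Ebp, and not for Hmgcs1 and Sc5d. In GENCODE, Hmgcs1 starts at 119690379 and Sc5d, on the minus strand, at 42264256, both further downstream. Capitals mark the CCAAT box on either strand and, in Hmgcs1, TCACCCCAC.
Hmgcs1: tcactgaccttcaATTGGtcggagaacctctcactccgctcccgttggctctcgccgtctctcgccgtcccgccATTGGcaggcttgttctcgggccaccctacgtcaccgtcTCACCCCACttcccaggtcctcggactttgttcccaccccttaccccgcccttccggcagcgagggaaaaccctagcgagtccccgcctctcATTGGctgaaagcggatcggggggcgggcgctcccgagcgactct
Pmvk: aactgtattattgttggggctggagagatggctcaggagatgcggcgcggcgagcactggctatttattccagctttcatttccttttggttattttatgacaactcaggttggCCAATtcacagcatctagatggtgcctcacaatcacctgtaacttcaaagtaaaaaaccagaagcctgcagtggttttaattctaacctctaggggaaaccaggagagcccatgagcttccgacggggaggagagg
Sc5d: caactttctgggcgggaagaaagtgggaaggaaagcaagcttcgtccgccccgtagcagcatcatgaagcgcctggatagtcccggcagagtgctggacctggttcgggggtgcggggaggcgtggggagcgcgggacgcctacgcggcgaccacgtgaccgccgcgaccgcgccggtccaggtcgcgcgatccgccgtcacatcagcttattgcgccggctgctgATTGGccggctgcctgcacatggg
Ebp: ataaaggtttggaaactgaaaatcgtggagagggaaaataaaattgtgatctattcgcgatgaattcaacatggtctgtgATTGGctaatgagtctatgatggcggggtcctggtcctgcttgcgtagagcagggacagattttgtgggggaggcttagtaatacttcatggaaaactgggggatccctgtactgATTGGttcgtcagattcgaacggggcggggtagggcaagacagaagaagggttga
The Hmgcs1 window holds 3 CCAAT boxes, that of Ebp 2, and those of Pmvk and Sc5d 1 each. Since the 4 windows were picked for holding the box, its presence in them is no result.

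For the relation to cycling, cells rich in S phase or G2/M transcripts were compared with cells low in both, within LT2, ST1 and ST2. The G2/M range held cells with at least 3 thinned UMIs of a list of 40 G2/M genes. The S range held cells under that limit with at least 8 UMIs of 40 S phase genes, and the low range cells with 0 G2/M and at most 4 S phase UMIs. The S phase list summed to 4688, 3760 and 3783 CPM in the G2/M range of LT2, ST1 and ST2. In the S range it summed to 3223, 2949 and 2833 CPM. With counts thinned to 5000 UMIs ST2 had the opposite order, at 2828 and 2846 CPM. The G2/M range was thus also rich in S phase transcripts, and differences from the low range are not assigned to 1 phase. The G2/M, S and low ranges held 139, 159 and 325 cells of LT2, 367, 416 and 614 of ST1 and 162, 235 and 436 of ST2. In no range were 523, 1167 and 757 cells of the 3 libraries, and 196, 515 and 258 lay at the G2/M limit or 1 UMI below it. The sterol enzymes together stood at 486, 502 and 422 CPM in the G2/M, S and low ranges of LT2, at 374, 391 and 343 CPM in ST1 and at 407, 402 and 377 CPM in ST2. The low range held the lowest sum in each library there. With equal depth, from cells thinned to 5000 UMIs, the sums were 476, 462 and 433 CPM in LT2, 376, 387 and 341 CPM in ST1 and 375, 396 and 386 CPM in ST2, so in ST2 the G2/M range was then the lowest. Single enzymes moved in opposite directions.

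Between the G2/M and the low range, 8 of the 30 members tested were higher and 4 lower. Of all genes outside the cycle lists 31.7% passed, 17% higher and 14.7% lower. Fdps stood at 66.5, 43.7 and 66.8 normalised CPM in the G2/M range of LT2, ST1 and ST2 and at 39.2, 27.6 and 37.5 in the low range. All G2/M values lay above all low values (log2 0.74, SE 0.10, edgeR adjusted p = 8.80e-07). For the cycle ranges, too, the share of all genes without overlap was not counted. Acat2 stood at 36.6, 24.6 and 20.9 against 19.7, 15.2 and 15.7, also without overlap (log2 0.70, SE 0.14, adjusted p = 0.000207). Ebp stood at 53.8, 52.9 and 69.7 against 37.6, 40.4 and 48.01, without overlap (log2 0.46, SE 0.09, adjusted p = 0.000314). The other higher members were Fads1 (0.62), Mvk (0.58), Acaca, acetyl-CoA carboxylase (0.46), Fasn (0.39) and Idi1 (0.35).

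Msmo1 was lower, at 41.2, 28.1 and 35.4 normalised CPM in the G2/M range and 55.2, 45.8 and 49.5 in the low range of LT2, ST1 and ST2, with no overlap (log2 -0.57, SE 0.11, adjusted p = 0.000111). Srebf2 stood at 69.2, 72.6 and 95.9 against 83.7, 95.6 and 118, lower within each library (log2 -0.34, SE 0.08, adjusted p = 0.00131). Lss stood at 2.26, 4.78 and 2.32 against 9.403, 8.19 and 4.92 (log2 -1.09, SE 0.30, adjusted p = 0.00573), and Insig2 was lower by -0.35 (adjusted p = 0.0464). Fdps and Msmo1, which had one of the highest pair correlations across cells, thus moved in opposite directions between these ranges. Among members that did not pass, Insig1 had a difference of -0.19 (interval from -0.39 to 0.02), Cyp51 of 0.08 (interval from -0.19 to 0.36) and Scd2 of -0.08 (interval from -0.23 to 0.07).

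Between the S and the low range 7 of 30 members were higher and 0 lower, where 22.9% of all genes passed, 13.3% higher and 9.6% lower. Acat2 stood at 34.6, 26.7 and 25.2 normalised CPM in the S range of LT2, ST1 and ST2 (log2 0.78, SE 0.13, adjusted p = 6.78e-05) and Fdps at 70.6, 39.2 and 55.3 (log2 0.63, SE 0.10, adjusted p = 2.11e-05). Fasn stood at 20.8, 33.97 and 33.2 against 13.2, 23.1 and 19.1 in the low range, higher within each library (log2 0.64, SE 0.13, adjusted p = 0.000458). The others were Acaca (0.55), Cyp51 (0.40), Srebf1 (0.37) and Idi1 (0.37). Msmo1 had a difference of -0.15 (adjusted p = 0.304) and Srebf2 of -0.18 (adjusted p = 0.0857). Both comparisons share the low range cells.

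**Figure D5:**
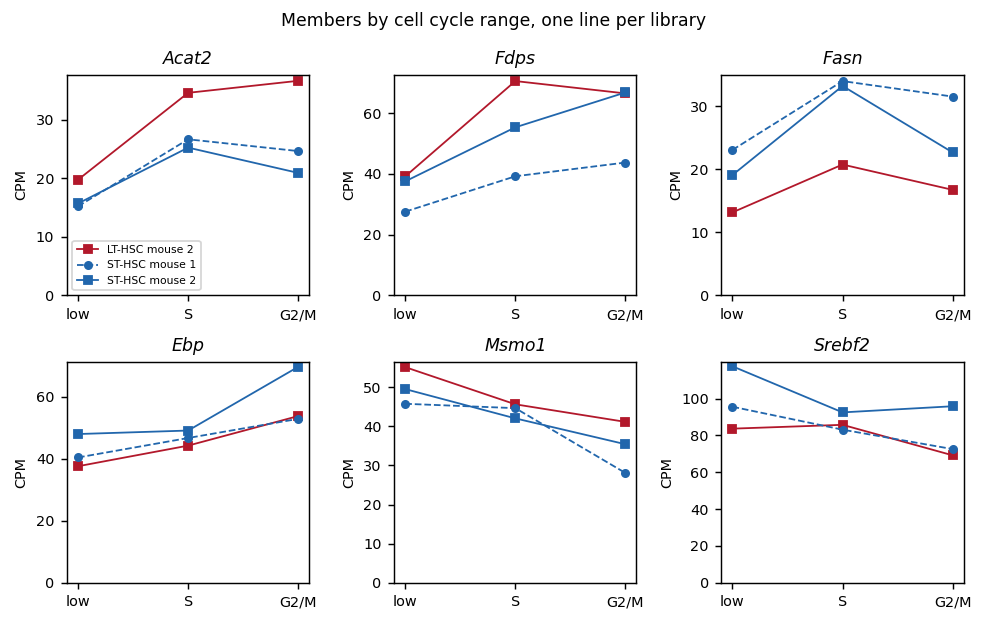
Normalised CPM of 6 members in the low, S and G2/M ranges, 1 line per library, with axes from 0. Acat2, Fdps and Fasn are higher in the S than in the low range in each library, Ebp is highest in the G2/M range, and Msmo1 and Srebf2 are lower in the G2/M than in the low range in each.

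Cells of the S and G2/M ranges were deeper: median UMIs in the G2/M, S and low ranges were 15044, 13860 and 9827 in LT2, 11841, 12405.5 and 9161.5 in ST1 and 9171, 9647 and 7291.5 in ST2. Without the 5% deepest cells of each library Fdps and Acat2 passed between G2/M and low, Msmo1 was at -0.19 (adjusted p = 0.366) and Ebp at 0.27 (adjusted p = 0.160). When the counts of cells thinned to 5000 UMIs were summed, which also leaves fewer counts, Fdps (0.56, adjusted p = 0.00515) and Lss (-1.45, adjusted p = 0.0376) passed between G2/M and low. Acat2 was then at 0.47 (adjusted p = 0.171), Ebp at 0.22 (0.342), Msmo1 at -0.36 (0.103), Srebf2 at -0.24 (0.130) and Acaca at 0.01 (0.986), and none of these passed. Between S and low, Fdps, Acat2 and Fasn passed with the thinned counts, and Mylip, named below, was at -0.36 (adjusted p = 0.157). The neutrophil markers summed to 9.63, 6.38 and 11.99 CPM in the G2/M, S and low ranges of LT2, to 1799.6, 20.3 and 868 CPM in ST1 and to 816, 44.2 and 4215 CPM in ST2. Without cells rich in markers of other types, Lss was at -0.47 (adjusted p = 0.235), Mvk at 0.46 (0.0846) and Fasn at 0.32 (0.0695) between G2/M and low, and Acaca at 0.27 (0.234) between S and low, none of which passed. Leaving out these cells or the deepest cells also thinned all remaining cells anew, which moved cells between ranges. In LT2, leaving out cells of other types took the thinned cells from 1146 to 1145 and the G2/M range from 139 to 128. Without the deepest cells the S limit was 7 UMIs. The effects of the cells left out and of the new draw cannot be told apart.

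Several cycle calls were lost when 1 library was left out. Between G2/M and low, the adjusted p without ST1 was 0.160 for Acaca, 0.0714 for Fads1, 0.370 for Fasn, 0.392 for Mvk, 0.0571 for Idi1, 0.0638 for Srebf2 and 0.520 for Insig2. Without LT2 it was 0.118 for Acaca, 0.0766 for Lss and 0.0795 for Insig2, and without ST2 0.108 for Idi1 and 0.0891 for Insig2. Between S and low, Srebf1 was lost without LT2, ST1 or ST2 (0.178, 0.119 and 0.0554), Cyp51 without LT2 (0.119) or ST2 (0.0781), and Acaca without ST1 (0.107). Fdps, Acat2, Ebp and Msmo1 between G2/M and low, and Fdps, Acat2, Fasn and Idi1 between S and low, passed with each of the 3 libraries left out. The Idi1 call between S and low was lost by DESeq2, with no replicate block, without the 5% deepest cells and with thinned counts summed.

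Of the other pathway genes, Lbr was higher in the G2/M range. It stood at 98.6, 104 and 128 against 72.1, 68.2 and 84.9 normalised CPM in LT2, ST1 and ST2, without overlap (log2 0.56, adjusted p = 7.66e-07). Ggps1, a prenyl diphosphate synthase, was lower by -0.35. Of 13 fatty acid genes, Acsl5, which activates long-chain fatty acids, was higher by 0.51 (adjusted p = 4.57e-05). Of 4 genes of sterol sensing and efflux, Abca1, a cholesterol exporter, and Nr1h2, a liver X receptor, were lower by -0.64 and -0.24. In the S range Abca1 stood at 11.5, 11.8 and 7.53 against 19.4, 22.4 and 24.6 normalised CPM, without overlap (log2 -1.05, adjusted p = 3.33e-05), and Mylip was lower by -0.64 (adjusted p = 0.000899). Slc25a1, the citrate carrier, and Hsd17b12, an enzyme of fatty acid elongation, were higher in the S range by 0.38 and 0.22. Slc25a1 was higher in 2 of the 3 libraries. Without ST1 the calls of Abca1 for G2/M (0.0761), Ggps1 (0.0694), Nr1h2 (0.132), Slc25a1 (0.790) and Hsd17b12 (0.321) were lost, as adjusted p. Without LT2 those of Ggps1 (0.130), Nr1h2 (0.259) and Hsd17b12 (0.0783) were lost. Without ST2 those of Ggps1 (0.112), Nr1h2 (0.111), Slc25a1 (0.0741) and Hsd17b12 (0.0753) were lost.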

How the data were processed

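Single cells of 4 libraries (2 gates, 2 mice) were profiled with the 10x Chromium 3' v3 kit. The authors deposited UMI counts per gene and barcode. Cell Ranger 3.1.0 and the genome build mm10 are named per the submitters' processing notes, with software version 3.0.2 in the file headers. The sources used here do not say how the barcodes were chosen. Of 31053 gene identifiers, 30934 matched GENCODE vM21, among them all 32 members.

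Cells were kept with at least 1000 genes, 2000 UMIs and at most 10% mitochondrial UMIs. No doublet caller was run; leaving out the 5% deepest cells is an alternative. Counts were summed per library, or per library and range of cells, and tested with edgeR 4.0.16 (quasi-likelihood, TMM, filterByExpr, R 4.3.3), adjusted over all genes at 0.05. The gate fit had no covariate and the range fits had the library as a block. Ranges were set on cells thinned to 5000 UMIs (seed 1) and fits used all counts of those cells. The S and low limits were the pooled 80th and 50th percentiles, and the score limits the pooled 75th and 25th. DESeq2 1.42.0, other normalisations, filters, cutoffs and left-out libraries were alternatives.

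The members and lists were chosen with earlier results of these data known. Genes named were all 32 members, 4 gate genes, genes of 3 further pathway lists that passed, and up to 12 higher and 6 lower genes that passed with both set scores, in 1 direction in every library and with at least 20 CPM. Hbb-bs passed with both scores outside that last rule and was named after its values were seen. Some genes of the further lists are not reported here. Libraries of 1 mouse come from the same animal. The correlation between the gates of the mouse 1 minus mouse 2 differences was 0.055 over 12656 genes. With 2 animals, p-values rest on a spread that edgeR estimates from these libraries and shares across genes. They do not measure the spread between animals at large, and a gene's own spread within a gate enters the gate test little. Libraries weigh by their counts, so the kept cells of LT1 add little to most gate estimates. A count of 0 in kept cells allows up to 26.0 CPM in LT-HSC of mouse 1 and 0.108 to 0.226 CPM in the others (3 counts of the total, counting error only). The fits were tested on simulated counts with known changes; for the set B score the share of false calls among all calls was above the adjusted threshold.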

Additional observations from a re-analysis of the deposited data

Results flagged for a closer look

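The barcodes of LT1 that failed the cell filter entered none of the main comparisons and still carried transcripts of the pathway. These 39531 barcodes held 13460097 UMIs in all. The 17 sterol enzymes made up 361.6 CPM of them (4867 UMIs), the 5 regulators 210.3 CPM (2830 UMIs) and the 10 fatty acid genes 195.8 CPM (2635 UMIs), where a count of 0 would allow up to 0.223 CPM. No library without stem cells was at hand as a control, and whether these UMIs come from cells or from free RNA was not tested.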

How the results depend on the processing

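Between the gates 3 members passed. With the mouse as a replicate block 2 passed, Elovl5 being the call lost, and no other member's call changed. The count was 5 with all barcodes of LT1, 6 with those and the block (1477 genes in all, against 851), and 0 by DESeq2 with or without its independent filtering, where 53 of 12656 genes passed in all. With each library left out it ranged from 0 to 4 in kept cells and from 2 to 4 with all barcodes. Without LT2, 1 gene passed in all. The median log2 difference of the sterol enzymes ranged from -0.80 without LT2 to 0.33 without LT1. Between the G2/M and low ranges 12 members passed, against 4 by DESeq2 (both forms) and 2 each with no replicate block, without the 5% deepest cells and with thinned counts summed, and 5 to 10 with a library left out. Genes called in all were 3507, and 1773, 1280, 1282 and 1387 under these settings. Between the S and low ranges 7 members passed, against 3 by DESeq2 (both forms), 0 with no replicate block, 4 without the deepest cells and 3 with thinned counts summed, and 5 to 6 with a library left out. Of all genes 2535 passed, and 1045 or 1029 by DESeq2, 546 with no block, 1363 with thinned counts and 1471 without ST1. With the score of set A 5 members passed, against 0 by DESeq2, which left their adjusted p undefined, 2 by DESeq2 without independent filtering, 2 in the low cycle range, 0 with no replicate block, 8 without cells rich in markers of other types, where the score limit moved to 2 UMIs, 3 with thinned counts summed, and 3 to 4 with a library left out. Of all genes 242 passed, and from 0 (no block) to 856 (without other cell types) under the alternatives. Lbr was at -0.029 (adjusted p = 0.997) in the low cycle range. With the score of set B 4 members passed, against 3 by DESeq2 (both forms), where Sqle was lost, 3 in the low cycle range, where Fdps was lost, 0 with no replicate block and 4 to 5 with a library left out, and the count over all genes went from 20 to between 0 and 142. With no block, differences between libraries enter the spread. Msmo1 and Idi1 with set A and Cyp51 and Insig1 with set B passed under each alternative that gave an adjusted p, except the fit with no block. Of 2364 values of single genes under alternatives, 2089 kept their side of the threshold, which includes genes not called in the main fits that stayed uncalled. In 245 values a call of the main fit was lost, and in 29 a gene not called there passed. Only 1 changed sign after being called. How many of the 2364 values belong to called genes is not given here. LT1 limits the gate comparison, since 22 cells give 1 to 8 UMIs for most members. Where a count of members stands without the count over all genes, it is not read as a result about the members. The causes of these changes were not tested.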
